A study of Rattus norvegicus with 12 samples.

Results

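The genes of the hypoxia response and of glycolysis were taken as a list of 36 genes chosen by name. The rule itself uses no measured value, but the list was chosen with earlier results of these data known. The list held 23 glycolysis genes (4 glucose and lactate transporters, 15 glycolytic enzymes, 2 regulators and 2 lactate dehydrogenase subunits) and 13 genes of the hypoxia-inducible factor (HIF) system (2 alpha subunits, 2 prolyl hydroxylases and 9 other HIF targets). Of these, 35 were measured, among 17379 genes and other transcripts in all, while Egln1 was not analysed here. All 35 passed the filter on low counts in both fits used below.

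RNA was sequenced from the hematoma that fills a femoral defect in rats, in 3 groups of 3 libraries. The defect measured 1.5 mm in the delayed healing group (delayed), 5.0 mm in the group that does not unite (nonunion) and 0.5 mm in the normally healing group (normal), so defect size and healing outcome changed together. Intact femur cut out when the 5.0 mm defects were made gave 3 further libraries (preOP). The animals, male SAS Fischer rats, weighed 200 to 225 g per the labels, which name no genotype or drug. The age of the hematomas, and whether libraries came from separate animals, were not stated in the labels, so p-values measure the spread between these samples, which may be technical. Nor do the labels say whether preOP and nonunion libraries share animals, and the main tests treat all libraries as unpaired.

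HIF is a transcription factor made of an oxygen-regulated alpha subunit, encoded by Hif1a or Epas1, and the constant partner encoded by Arnt. At normal oxygen the prolyl hydroxylases of the Egln family mark the alpha subunit, and the ubiquitin ligase that contains Vhl removes it. When oxygen is short the alpha subunit persists and transcription of glucose transporters, glycolytic enzymes, the lactate exporter, Pdk1 and Vegfa goes up. A fracture cuts the blood vessels of the bone, and the clot that forms is poor in oxygen and rich in lactate.

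Each library held 16808993 to 24325162 estimated reads, and levels are given as CPM, counts scaled to a common library size, after TMM scaling, a correction for differences in RNA composition between libraries. Several libraries stood apart. Nonunion 2 had 72.2% of its reads on ribosomal RNA and 8.22% on 2 transcripts without a gene symbol, which left the fewest other reads. Its 10 adipocyte markers summed to 14680 CPM, against at most 1689 CPM elsewhere. Delayed 2 had 73240 CPM on 17 skeletal muscle markers, against 229 to 7167 CPM in the other hematomas. Globin genes took 0.0328% to 2.96% of reads in hematomas and 15.7% to 24.0% in preOP femur. The 11 erythroid markers summed to 101 to 417 CPM in hematomas and 10890 to 16570 CPM in preOP. The 13 osteoblast markers summed to 8884 to 51500 CPM in hematomas and 3797 to 4268 CPM in the femur pieces, whose 17 muscle markers summed to 6940 to 14860 CPM. In normal 2, transcripts under 1000 bases stood higher than in normal 1 and 3 (median log2 ratio 0.75) and the longest class of transcripts lower (-0.43). Salmon shortens each transcript to an effective length according to fragment size, and the median shortening was 194 to 255 bases in delayed, nonunion and preOP libraries and 157 to 192 bases in normal libraries. Normal 1 (192 bases) was closer to nonunion 2 (194 bases) than to normal 2 and 3 (160 and 157 bases). Since the short side holds normal libraries alone, fragment size and group cannot be told apart in any comparison with normal. Whether the difference marks a batch was not tested. In bulk tissue, fewer cells of a type and less RNA per cell cannot be told apart either.

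Glycolytic transcripts were abundant. On the scale of CPM per kilobase of effective length, which allows levels to be compared between genes, Gapdh averaged 5213 in delayed, 2833 in nonunion, 3277 in normal and 1366 in preOP libraries. Aldoa, Ldha, Pkm, Eno1, Pgk1 and Tpi1 came next in delayed hematomas, with means between 1229 and 2512 on the same scale. These 7 genes made up 65.7% to 88.4% of the summed level of the 35 genes per library. At the other end, the regulator Pfkfb4 averaged 12.7 in delayed and 4.16 in normal hematomas, and Car9 averaged 14.9 in delayed and 7.27 in normal hematomas.

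The summed CPM of the 35 genes was 28400, 24390 and 26780 in delayed 1 to 3, 21580, 4960 and 14320 in nonunion 1 to 3, 11830, 20130 and 12620 in normal 1 to 3, and 7914, 8567 and 6455 in preOP 1 to 3. The delayed libraries were the 3 highest and the groups delayed and normal did not overlap. Nonunion spread over a wide range, with nonunion 2 below every other library. By group mean, 28 of the 35 genes were highest in delayed, 5 in preOP, 1 in nonunion and 1 in normal. PreOP had the lowest mean for 25 genes, normal for 9 and nonunion for 1. Among the 9 hematomas alone, nonunion 2 was the lowest library for 21 genes and normal 2 for 7.

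**Figure D1:**
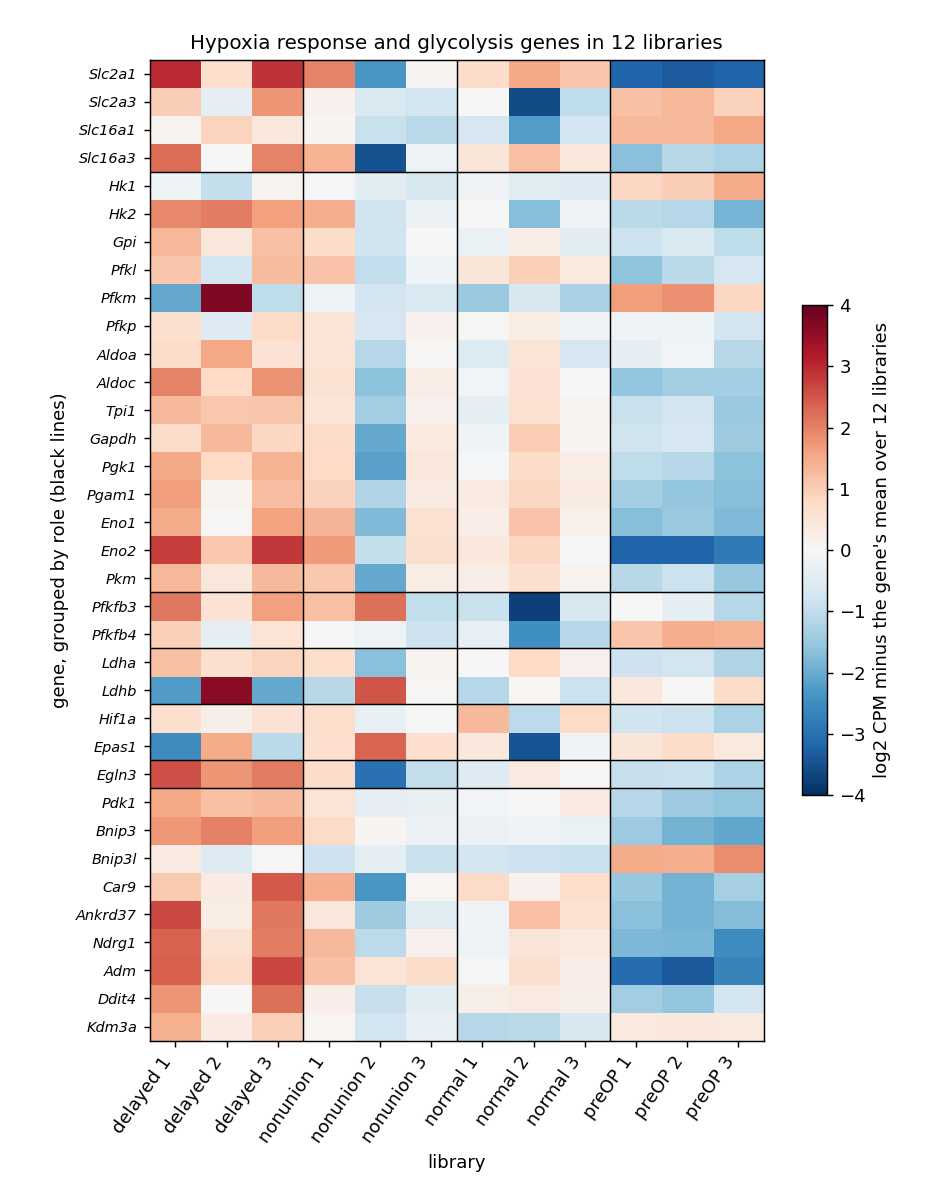
Level of each of the 35 genes in the 12 libraries, as log2 CPM minus the gene's mean over the 12 libraries (red above, blue below; columns are libraries, rows are genes grouped by role). Delayed 1 and 3 are red for most genes, nonunion 2 is the lowest hematoma for 21 genes, and the preOP columns are red for Slc2a3, Slc16a1, Hk1, Pfkm, Pfkfb4 and Bnip3l.

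Delayed against normal set the hematoma of the 1.5 mm defect against that of the 0.5 mm defect. Among the 9 other HIF targets, 4 were higher in delayed than in normal hematomas, and none of the 23 glycolysis genes passed the test (edgeR quasi-likelihood, Benjamini-Hochberg adjusted over 12474 genes, called below 0.05). Of the 35 genes 4 thus passed upward (Bnip3, Kdm3a, Adm and Pdk1) and 0 downward, where 2.68% of all tested genes passed upward and 4.45% downward. The 35 log2 fold changes had a median of 1.23, against 0.02 over all genes tested, and 34 were positive (32 without delayed 2 and nonunion 2). Of the HIF system DESeq2 called Bnip3, Kdm3a, Pdk1, Adm, Egln3 and Bnip3l, and limma-voom called Bnip3, Kdm3a and Pdk1 but not Adm. The 3 delayed libraries lay above all 3 normal libraries for 16 of the 35 genes, against 16.1% of all genes.

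Bnip3 encodes a mitochondrial outer membrane protein that promotes removal of mitochondria. It stood at 658, 797 and 626 CPM in delayed 1 to 3 and at 165, 177 and 163 CPM in normal 1 to 3. The groups lay far apart and the normal libraries were close together (log2 fold change 2.02, SE 0.32, adjusted p = 0.012). Kdm3a encodes a histone demethylase that acts on histone H3. Its level was 204, 94.3 and 146 CPM in delayed and 34.1, 36.0 and 48.5 CPM in normal libraries, again without overlap (log2 fold change 1.89, SE 0.37, adjusted p = 0.023). Adm, which encodes the vasodilator peptide adrenomedullin, was measured at 98.2, 31.3 and 118 CPM in delayed and 17.6, 29.0 and 22.1 CPM in normal libraries. Delayed 2 was only just above normal 2 here (log2 fold change 1.86, SE 0.47, adjusted p = 0.048). Pdk1 encodes a kinase that switches off pyruvate dehydrogenase and so keeps pyruvate out of the mitochondrial cycle. It had 108, 83.3 and 92.0 CPM in delayed and 34.2, 37.7 and 47.7 CPM in normal libraries, with no overlap and the smallest change of these genes (log2 fold change 1.23, SE 0.31, adjusted p = 0.048).

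**Figure D2:**
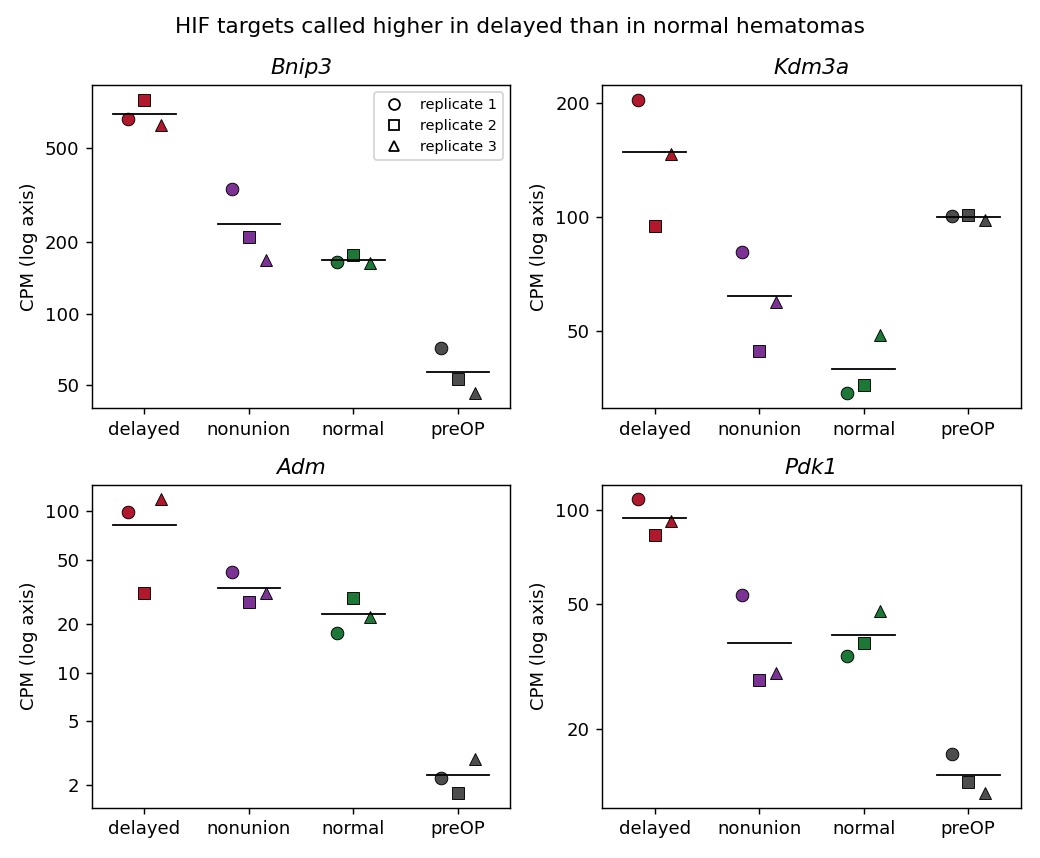
CPM of Bnip3, Kdm3a, Adm and Pdk1 in each library on a log axis (symbols mark the replicate number, lines the group mean, n = 3 per group). The delayed points lie above the normal points in all 4 panels, Bnip3 at 626 to 797 CPM against 163 to 177 CPM, and preOP is lowest for Bnip3, Adm and Pdk1 but not for Kdm3a.

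The calls depended on single libraries. Without normal 1 or without normal 3 the count of called genes was 0, without normal 2, delayed 1 or delayed 3 it was 1, and without delayed 2 it was 4. Bnip3 stayed below 0.05 in 4 of these 6 fits and reached adjusted p = 0.055 without normal 1 and 0.061 without normal 3. Kdm3a (adjusted p = 0.063 to 0.083) and Adm (0.10 to 0.14) lost their calls in every fit but the one without delayed 2. Pdk1 lost its call in all 6 (0.054 to 0.14). The log2 fold changes over these fits ran from 1.94 to 2.08 for Bnip3, 1.58 to 2.15 for Kdm3a, 1.50 to 2.26 for Adm and 1.11 to 1.40 for Pdk1.

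The promoters of these 4 genes are printed because edgeR called these genes in the fit of all 9 hematomas. They come from RefSeq (GRCr8) and run over the 250 bases before each transcription start, 5′ to 3′ on the strand of the gene. Capitals mark the core of the HIF response element, ACGTG or GCGTG, searched on both strands, so that its reverse complements CACGT and CACGC are marked too.
Bnip3, chr1:203154963-203155212, minus strand: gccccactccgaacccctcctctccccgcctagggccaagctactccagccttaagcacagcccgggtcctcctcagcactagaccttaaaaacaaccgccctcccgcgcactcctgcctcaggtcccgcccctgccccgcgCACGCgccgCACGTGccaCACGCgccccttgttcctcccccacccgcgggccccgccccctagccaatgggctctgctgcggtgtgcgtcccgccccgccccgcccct
Pdk1, chr3:77113264-77113513, plus strand: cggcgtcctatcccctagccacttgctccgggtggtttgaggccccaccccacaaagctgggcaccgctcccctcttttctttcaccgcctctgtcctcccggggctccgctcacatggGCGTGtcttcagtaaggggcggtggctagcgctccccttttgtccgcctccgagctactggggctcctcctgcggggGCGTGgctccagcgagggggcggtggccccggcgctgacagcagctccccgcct
Kdm3a, first start, chr4:105233371-105233620, minus strand: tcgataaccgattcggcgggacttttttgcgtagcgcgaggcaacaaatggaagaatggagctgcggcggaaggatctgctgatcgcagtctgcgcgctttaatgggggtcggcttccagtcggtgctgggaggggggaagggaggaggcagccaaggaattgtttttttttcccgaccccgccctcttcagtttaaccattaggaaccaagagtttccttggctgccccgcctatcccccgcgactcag
Kdm3a, second start, chr4:105233112-105233361, minus strand: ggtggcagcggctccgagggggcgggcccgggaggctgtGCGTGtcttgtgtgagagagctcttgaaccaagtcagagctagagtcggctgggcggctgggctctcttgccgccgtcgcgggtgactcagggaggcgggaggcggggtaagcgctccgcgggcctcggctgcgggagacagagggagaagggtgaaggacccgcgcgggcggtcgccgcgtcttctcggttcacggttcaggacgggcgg
Adm, chr1:174179950-174180199, plus strand: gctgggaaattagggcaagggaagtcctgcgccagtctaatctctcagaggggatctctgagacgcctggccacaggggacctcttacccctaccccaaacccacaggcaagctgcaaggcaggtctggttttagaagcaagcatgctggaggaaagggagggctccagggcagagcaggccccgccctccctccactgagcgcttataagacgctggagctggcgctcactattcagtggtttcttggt

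The Bnip3 window held 4 matches, which begin 108, 99, 98 and 90 bases before the start, and the matches at 99 and 98 overlap as the palindrome CACGTG. Pdk1 had 2 matches, beginning 131 and 54 bases before its start. Kdm3a had 0 at its first start and 1 at its second start, which begins 211 bases upstream, and Adm had 0. Of 33469 promoters in the table, counted over all 300 bases with the 50 after the start, 41.6% held at least 1 match and 8.15% held 3 or more. The table had 37 promoters for 32 of the 36 genes, and 25 of these promoters (67.6%) held a match and 9 (24.3%) held 3 or more. A match describes letters and not a bound site.

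The glycolysis genes were higher on average in delayed than in normal hematomas without passing the test. All 23 log2 fold changes were positive (median 1.11; 21 of 23 without delayed 2 and nonunion 2), 9 had an unadjusted p below 0.05, and edgeR called 0, limma-voom 1 (Hk2) and DESeq2 5 (Hk2, Pfkfb3, Slc16a1, Eno2 and Pfkfb4). The shares of all genes at an unadjusted p below 0.05, or called by limma-voom or DESeq2, are not given here. Hk2, the inducible hexokinase that commits glucose to the cell, had 149, 162 and 124 CPM in delayed and 38.5, 12.1 and 34.0 CPM in normal libraries, with no overlap (log2 fold change 2.32, SE 0.64, adjusted p = 0.06). Pfkfb3 makes fructose 2,6-bisphosphate, the strongest activator of phosphofructokinase. It stood at 141, 48.7 and 101 CPM in delayed and 17.5, 2.45 and 20.5 CPM in normal libraries (log2 fold change 2.81, SE 0.93, adjusted p = 0.1), and the low end was normal 2. Eno2, a second enolase, measured 291, 90.2 and 309 CPM in delayed and 57.9, 76.6 and 40.8 CPM in normal libraries (log2 fold change 1.99, SE 0.68, adjusted p = 0.11). Slc16a1, which carries lactate in both directions, had 119.7, 203 and 148 CPM in delayed and 68.9, 23.4 and 65.5 CPM in normal libraries (log2 fold change 1.53, SE 0.49, adjusted p = 0.091).

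Of the core enzymes, Aldoa, Tpi1, Pgk1, Gpi and Aldoc also separated the groups, while Gapdh, Pgam1, Eno1, Pkm, Ldha, Hk1, Pfkl, Pfkp and Pfkm overlapped. Aldoa separated only just, with 2322, 4089 and 2072 CPM in delayed 1 to 3 against 2058 CPM in normal 2. Pgk1, the first ATP-making enzyme of the pathway, had 2352, 1436 and 2167 CPM in delayed and 800, 1397 and 1021 CPM in normal libraries. Gapdh had 4554, 6689 and 4905 CPM in delayed and 2441, 5525 and 2941 CPM in normal libraries, and normal 2 lay within the delayed range. Ldha, the subunit of lactate dehydrogenase that favours lactate formation, had 3111, 2122 and 2527 CPM in delayed and 1389, 2395 and 1552 CPM in normal libraries, which also overlapped at normal 2. The main glucose importer Slc2a1 reached 426, 88.8 and 403 CPM in delayed and 89.8, 154 and 116 CPM in normal libraries, with delayed 2 below all 3 normal libraries.

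Delayed 2 differed from its group in the direction of muscle. Pfkm, the muscle phosphofructokinase, stood at 21.2, 1145 and 42.5 CPM in delayed 1 to 3 and 31.0, 55.7 and 35.0 CPM in normal 1 to 3. Its log2 fold change of 3.26 (SE 1.25, adjusted p = 0.15) turned to -0.32 without delayed 2. Ldhb, the heart-type subunit of lactate dehydrogenase, had 8.25, 487 and 9.68 CPM in delayed and 18.2, 42.4 and 22.1 CPM in normal libraries, so that only delayed 2 was high. Its log2 fold change of 2.56 (SE 1.49) turned to -1.54 without delayed 2 and nonunion 2, called in neither fit by edgeR. Most genes of the list were lower in the same library than in delayed 1 and 3. Among them were the called genes Kdm3a, Adm and Pdk1, and Slc2a1, Slc16a3, Pfkl, Eno1, Pgam1, Car9, Ankrd37, Ndrg1 and Ddit4. The exceptions were Slc16a1, Hk2, Pfkm, Aldoa, Gapdh, Ldhb, Epas1 and Bnip3. The part of muscle RNA in these values was not tested.

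Without delayed 2 and nonunion 2, libraries known to stand apart from earlier results, 16 of the 35 genes were called higher in delayed than in normal and 0 lower, against 7.69% of all genes called higher. They were 9 genes of the HIF system (Adm, Kdm3a, Ddit4, Bnip3, Ndrg1, Egln3, Pdk1, Bnip3l and Ankrd37) and 7 glycolysis genes (Eno2, Aldoc, Gpi, Hk2, Slc2a1, Pfkfb3 and Pgk1). The log2 fold changes in that fit were 2.44 for Eno2, 2.42 for Egln3 and 3.23 for Pfkfb3. The groups then have 2 delayed and 2 nonunion libraries, and the median over the 35 genes was 1.42, against -0.02 over all genes.

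The HIF alpha subunits were not called by edgeR or DESeq2. Hif1a had 219.8, 166 and 211 CPM in delayed and 342, 67.6 and 245 CPM in normal libraries, where normal 2 was far below normal 1 and 3. Epas1, which encodes HIF-2 alpha and is abundant in endothelium and fat, had 4.57, 73.3 and 12.3 CPM in delayed and 34.9, 2.39 and 23.4 CPM in normal libraries, with a wide spread in both. HIF alpha is controlled mainly through protein stability, which these data do not measure. Egln3, a prolyl hydroxylase that is itself a HIF target, measured 280.5, 159 and 199 CPM in delayed and 32.9, 60.0 and 48.0 CPM in normal libraries, with no overlap (log2 fold change 2.18, SE 0.75, adjusted p = 0.11).

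The remaining HIF targets had positive log2 fold changes that edgeR did not call, while DESeq2 called Bnip3l. Ndrg1, a stress-induced gene, had 1199, 354 and 959.7 CPM in delayed and 205, 334 and 307 CPM in normal libraries, with no overlap (log2 fold change 1.57, SE 0.63, adjusted p = 0.16). Ddit4, an inhibitor of mTOR complex 1, had 164, 49.6 and 225 CPM in delayed and 57.4, 61.6 and 57.5 CPM in normal libraries, and delayed 2 was below the normal range. Car9, a cell-surface carbonic anhydrase, had 19.3, 11.6 and 51.0 CPM in delayed and 15.9, 10.5 and 15.1 CPM in normal libraries. Ankrd37 had 38.0, 7.53 and 26.7 CPM in delayed and 5.61, 14.0 and 9.37 CPM in normal libraries. Bnip3l, a relative of Bnip3, had 378, 208 and 284 CPM in delayed and 174, 168 and 159 CPM in normal libraries, with no overlap.

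Cell type markers moved with this comparison. The 19 macrophage markers summed to 41070, 15110 and 23950 CPM in delayed and 23650, 41090 and 25760 CPM in normal libraries, which overlap. The 13 osteoblast markers summed to 13400 to 34510 CPM in delayed and 43660 to 51500 CPM in normal, the 10 chondrocyte markers to 49.0 to 66.2 CPM and 597 to 1579 CPM, and the 12 endothelial markers to 319 to 548 CPM and 835 to 943 CPM. The 12 neutrophil markers summed to 451 to 2785 CPM in delayed and 1792 to 9668 CPM in normal. No marker of these lists was at 0 in all 12 libraries, and single libraries lacked reads on Marco, Mepe, Sp7, Fpr1, Col2a1, Col9a1, Hapln1 or Matn1. Their part in the result was not tested.

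**Figure D3:**
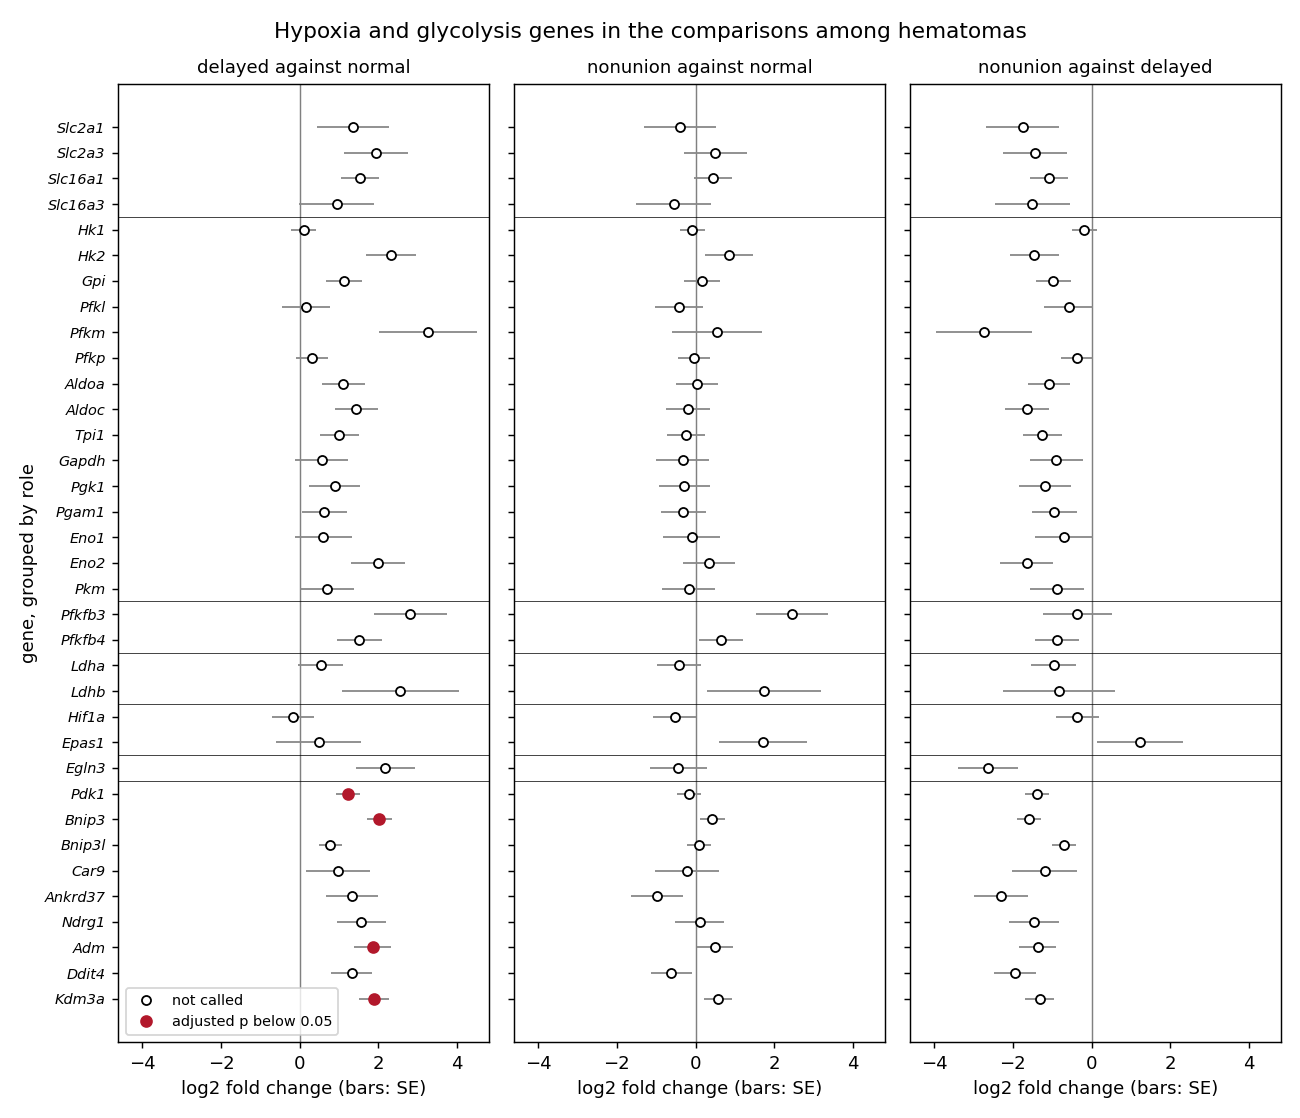
Log2 fold change of each of the 35 genes (points) with its SE (bars) in delayed against normal, nonunion against normal and nonunion against delayed hematomas. Red points are the 4 genes with an adjusted p below 0.05, all in delayed against normal, where 34 of 35 points lie right of 0, while 34 of 35 lie left of 0 in nonunion against delayed.

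Nonunion against normal set the hematoma of the 5.0 mm defect against that of the 0.5 mm defect. No gene of the list was called by edgeR, against 0.89% of all genes higher and 1.48% lower. An unadjusted p below 0.05 was found for 1 gene, Pfkfb3, which DESeq2 also called and limma-voom did not. Pfkfb3 stood at 74.0, 149 and 16.4 CPM in nonunion 1 to 3 and 17.5, 2.45 and 20.5 CPM in normal 1 to 3, so that 1 nonunion library lay within the normal range (log2 fold change 2.45, SE 0.91, adjusted p = 0.18). The 35 log2 fold changes had a median of -0.08, against -0.03 over all genes, with 16 positive and 19 negative. Only Epas1 separated the groups, where 14.1% of all genes lay higher without overlap. It had 41.3, 132 and 41.2 CPM in nonunion and 34.9, 2.39 and 23.4 CPM in normal libraries, highest in nonunion 2, the library with the adipocyte markers. The 12 endothelial markers summed to 804 to 2136 CPM in nonunion and 835 to 943 CPM in normal. Without delayed 2 and nonunion 2 the count called was again 0 and the median was 0.29.

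The nonunion libraries themselves spread widely. Pgk1 had 1423, 181 and 1121 CPM in nonunion 1 to 3, Eno1 had 2584, 300 and 1543 CPM and Slc2a1 had 215, 10.8 and 58.0 CPM, in each case lowest in nonunion 2. Slc16a3, the lactate exporter of glycolytic cells, had 237, 8.02 and 78.0 CPM and Egln3 had 77.6, 5.86 and 23.9 CPM, in the same order. Ldhb went the other way, at 18.6, 228 and 41.9 CPM. Nonunion 1 was higher than nonunion 3 for each of these genes but Ldhb. The part of ribosomal and adipocyte RNA in nonunion 2 in these values was not tested.

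Nonunion against delayed compared the defects that do not heal normally. No gene of the list was called by edgeR, where 0.0% of all genes were called higher and 0.0% lower, and limma-voom called 0 of the list. An unadjusted p below 0.05 was found for 13 genes, all lower in nonunion, and DESeq2 called 5 of the 35 lower (Bnip3, Pdk1, Egln3, Ddit4 and Ankrd37). The shares of all genes for these counts are not given here, so the counts alone do not set the list apart. The 35 log2 fold changes had a median of -1.18, against -0.05 over all genes, and 34 were negative (32 without delayed 2 and nonunion 2, where Epas1, Pfkm and Ldhb were positive). All 3 nonunion libraries lay below all 3 delayed libraries for 10 genes (Bnip3, Pdk1, Kdm3a, Egln3, Hk2, Aldoa, Aldoc, Tpi1, Pgk1 and Slc16a1), against 3.32% of all genes. The 12 endothelial markers were higher without overlap, summing to 804 to 2136 CPM in nonunion and 319 to 548 CPM in delayed. The 10 chondrocyte markers (11.1 to 157 CPM in nonunion and 49.0 to 66.2 CPM in delayed), the 13 osteoblast markers (8884 to 24370 CPM in nonunion and 13400 to 34510 CPM in delayed) and the 19 macrophage markers (10900 to 39120 CPM in nonunion and 15110 to 41070 CPM in delayed) overlapped. The part of these cell types in the result was not tested.

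Bnip3 had 335, 211 and 168 CPM in nonunion and 658, 797 and 626 CPM in delayed libraries (log2 fold change -1.59, SE 0.31, adjusted p = 0.36). Pdk1 had 53.7, 28.7 and 30.3 CPM in nonunion and 108, 83.3 and 92.0 CPM in delayed libraries (log2 fold change -1.38, SE 0.31, adjusted p = 0.39). Egln3 showed the widest gap of the HIF genes, with 77.6, 5.86 and 23.9 CPM in nonunion and 280.5, 159 and 199 CPM in delayed libraries (log2 fold change -2.62, SE 0.76, adjusted p = 0.47). None of these differences passed edgeR's test. Without delayed 2 and nonunion 2 Ddit4 was called lower, at 58.4, 25.4 and 35.6 CPM in nonunion and 164, 49.6 and 225 CPM in delayed 1 to 3 (log2 fold change -2.12, SE 0.30, adjusted p = 0.04 in that fit), where 0.0317% of all genes were called lower. In the fit of all 9 hematomas it was not (log2 fold change -1.94, SE 0.53, adjusted p = 0.45).

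Hematoma against preOP femur asked how the tissue in the defect differs from the bone it replaces. Most of the pathway rose in the hematoma. With the 3 hematoma groups weighted equally, 22 of the 35 genes were called higher and 4 lower, against 17.6% and 23.0% of 12846 genes. Among the 23 glycolysis genes 13 rose and 3 fell, and among the 12 measured HIF system genes 9 rose and 1 fell. The median of the 35 log2 fold changes was 1.61, against -0.02 over all genes. Values below are in CPM, tested by edgeR in the fit of all 12 libraries, and the groups share the same 3 preOP libraries.

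Slc2a1 and Eno2 had the largest changes. Slc2a1 ran from 10.8 to 426 CPM over the 9 hematomas, with a median of 116, against 6.07, 5.43 and 5.86 in preOP femur (log2 fold change 4.71, SE 0.90, adjusted p = 0.0019), and every hematoma lay above every femur piece. Slc16a3 ran from 8.02 to 426 CPM over the 9 hematomas, with a median of 126, against 28.3, 42.0 and 37.8 in preOP femur (log2 fold change 2.23, SE 0.81, adjusted p = 0.045). Only nonunion 2 lay below the femur values for that gene. In contrast the lactate carrier Slc16a1 ran from 23.4 to 203 CPM over the 9 hematomas, with a median of 68.9, against 274, 271 and 320 in preOP femur (log2 fold change -1.75, SE 0.32, adjusted p = 0.0014), with every hematoma lower. Slc2a3, the glucose transporter of neurons and white blood cells, was not called, and had 71.9, 27.6 and 123 CPM in delayed, 41.1, 23.4 and 21.3 CPM in nonunion, 35.9, 3.00 and 17.8 CPM in normal and 81.8, 90.5 and 69.2 CPM in preOP libraries. The lactate carriers thus moved in opposite directions relative to femur.

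In the upper part of glycolysis Hk1, the housekeeping hexokinase, ran from 54.5 to 115 CPM over the 9 hematomas, with a median of 76.5, against 185, 207 and 291 in preOP femur (log2 fold change -1.46, SE 0.23, adjusted p = 0.00051), with all hematomas below all femur pieces. Hk2 ran from 12.1 to 162 CPM over the 9 hematomas, with a median of 38.5, against 18.8, 17.8 and 10.8 in preOP femur (log2 fold change 1.94, SE 0.51, adjusted p = 0.011). Only normal 2 was within the femur range. Gpi, which makes fructose 6-phosphate, ran from 292 to 1284 CPM over the 9 hematomas, with a median of 619.5, against 279.7, 332 and 248 in preOP femur (log2 fold change 1.17, SE 0.35, adjusted p = 0.019). Pfkl, the liver-type phosphofructokinase, ran from 45.6 to 217 CPM over the 9 hematomas, with a median of 126, against 29.9, 42.5 and 57.5 in preOP femur (log2 fold change 1.61, SE 0.52, adjusted p = 0.028). The hematoma inside the femur range was nonunion 2 for Gpi, and delayed 2 and nonunion 2 for Pfkl. Aldoc, a brain-type aldolase, ran from 3.70 to 46.3 CPM over the 9 hematomas, with a median of 17.4, against 3.95, 4.58 and 4.56 in preOP femur (log2 fold change 2.02, SE 0.46, adjusted p = 0.0047). Tpi1, triosephosphate isomerase, ran from 250.5 to 1632 CPM over the 9 hematomas, with a median of 934, against 358, 396 and 235 in preOP femur (log2 fold change 1.43, SE 0.40, adjusted p = 0.015). Nonunion 2 was below the femur range for Aldoc and inside it for Tpi1.

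In the lower part Pgk1 ran from 181 to 2352 CPM over the 9 hematomas, with a median of 1397, against 407, 370.4 and 264 in preOP femur (log2 fold change 1.84, SE 0.53, adjusted p = 0.017). Pgam1, phosphoglycerate mutase, ran from 179.7 to 1337 CPM over the 9 hematomas, with a median of 534, against 162, 143 and 129.5 in preOP femur (log2 fold change 2.17, SE 0.47, adjusted p = 0.0038), with no overlap. Eno1, the common enolase, ran from 300 to 3057 CPM over the 9 hematomas, with a median of 1543, against 312, 360 and 298 in preOP femur (log2 fold change 2.42, SE 0.62, adjusted p = 0.0092). No hematoma overlapped the femur pieces for Eno2. It ran from 22.4 to 309 CPM over the 9 hematomas, with a median of 76.6, against 4.69, 4.72 and 6.10 in preOP femur (log2 fold change 4.29, SE 0.63, adjusted p = 0.00038). Pkm, a pyruvate kinase gene, ran from 342 to 3524 CPM over the 9 hematomas, with a median of 1928, against 659, 783 and 489.5 in preOP femur (log2 fold change 1.71, SE 0.54, adjusted p = 0.027). Ldha ran from 428 to 3111 CPM over the 9 hematomas, with a median of 2122, against 769, 828 and 591 in preOP femur (log2 fold change 1.34, SE 0.44, adjusted p = 0.031). For Pgk1, Eno1, Pkm and Ldha the overlap came from nonunion 2. Gapdh, Pfkp, Pfkm, Aldoa and Ldhb were not called by edgeR, though all 5 were without delayed 2 and nonunion 2, Pfkm and Ldhb lower. Gapdh had 1572, 1715 and 1024 CPM in preOP femur, and 8 of 9 hematomas were above it.

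Of the 2 regulators Pfkfb4 fell, running from 2.51 to 26.5 CPM over the 9 hematomas, with a median of 10.8, against 29.3, 37.5 and 35.8 in preOP femur (log2 fold change -1.63, SE 0.36, adjusted p = 0.0043), and every hematoma was below every femur piece. Pfkfb3 was not called and had 31.8, 24.8 and 14.7 CPM in preOP femur, within the range of the hematomas.

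Of the HIF system Hif1a ran from 67.6 to 342 CPM over the 9 hematomas, with a median of 211, against 81.4, 76.9 and 58.9 in preOP femur (log2 fold change 1.40, SE 0.42, adjusted p = 0.021), with only normal 2 inside the femur range. Egln3 ran from 5.86 to 280.5 CPM over the 9 hematomas, with a median of 60.0, against 24.9, 25.1 and 19.4 in preOP femur (log2 fold change 1.62, SE 0.59, adjusted p = 0.046). Nonunion 2 was below and nonunion 3 inside the femur range. Epas1 and Kdm3a were not called. Adm ran from 17.6 to 118 CPM over the 9 hematomas, with a median of 31.1, against 2.22, 1.79 and 2.90 in preOP femur (log2 fold change 4.11, SE 0.45, adjusted p = 6.7e-05), and the highest femur value was far below the lowest hematoma. Ndrg1 ran from 113 to 1199 CPM over the 9 hematomas, with a median of 334, against 67.0, 66.2 and 41.2 in preOP femur (log2 fold change 2.86, SE 0.55, adjusted p = 0.002), also without overlap. Ankrd37 ran from 2.31 to 38.0 CPM over the 9 hematomas, with a median of 8.35, against 1.92, 1.65 and 1.85 in preOP femur (log2 fold change 2.55, SE 0.57, adjusted p = 0.0045). It was lower in every femur piece than in any hematoma.

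Car9 ran from 1.85 to 51.0 CPM over the 9 hematomas, with a median of 15.1, against 3.21, 2.50 and 3.70 in preOP femur (log2 fold change 2.42, SE 0.70, adjusted p = 0.017). Bnip3 ran from 163 to 797 CPM over the 9 hematomas, with a median of 211, against 71.4, 52.9 and 46.2 in preOP femur (log2 fold change 2.41, SE 0.27, adjusted p = 7.5e-05). Pdk1 ran from 28.7 to 108 CPM over the 9 hematomas, with a median of 47.7, against 16.7, 13.6 and 12.5 in preOP femur (log2 fold change 1.87, SE 0.25, adjusted p = 0.0002). Hematomas and femur did not overlap for Bnip3 and Pdk1, while nonunion 2 was below the femur range for Car9. Ddit4 ran from 25.4 to 225 CPM over the 9 hematomas, with a median of 57.5, against 18.5, 16.5 and 28.2 in preOP femur (log2 fold change 1.73, SE 0.43, adjusted p = 0.008). Nonunion 2 was the only hematoma inside the femur range. Bnip3l, which removes mitochondria from maturing red cells, went against the other targets. It ran from 159 to 378 CPM over the 9 hematomas, with a median of 174, against 832, 803 and 1073 in preOP femur (log2 fold change -2.12, SE 0.20, adjusted p = 2.8e-05), and all hematomas were lower.

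The count rested on the preOP libraries, since without preOP 3 it was 15 in both directions and without preOP 1 or preOP 2 it was 18. Of the 26 called genes 15 passed in all 12 fits that left out 1 library, while Gpi, Pfkl, Tpi1, Hk2, Pgk1, Pkm, Ldha, Hif1a, Car9, Egln3 and Slc16a3 lost their calls without 1 or more preOP libraries. Egln3 and Slc16a3 also lost theirs without normal 1, 2 or 3 or without delayed 1 or 3. The erythroid markers moved with the femur pieces, at 101 to 417 CPM in hematomas and 10890 to 16570 CPM in preOP, and their part in the lower levels of Bnip3l, Slc16a1, Hk1 and Pfkfb4 was not tested. The 12 neutrophil markers summed to 276 to 9668 CPM in hematomas and 8158 to 10530 CPM in preOP, and the 19 macrophage markers to 10900 to 41090 CPM and 4791 to 6594 CPM.

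Each hematoma group was also set against the femur pieces. In delayed hematomas 23 of the 35 genes were called higher and 2 lower, against 12.6% and 15.6% of all genes. In nonunion hematomas 9 were called higher and 4 lower, against 13.5% and 14.9%. In normal hematomas 15 were called higher and 6 lower, against 20.5% and 22.1%. The differences between these counts were not tested as such, and the comparisons share the preOP libraries. Slc2a1 was higher by 5.72 in delayed, 4.03 in nonunion and 4.37 in normal hematomas on the log2 scale. Eno2 was higher by 5.48, 3.89 and 3.50 in the same order, and Adm by 5.16, 3.86 and 3.31. All of these were called, with SE between 0.47 and 0.99.

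In the edgeR fit of all 12 libraries Slc16a3, Gpi, Tpi1, Gapdh, Pkm, Ldha and Egln3 were called in delayed and not in nonunion or normal. All 7 were called in each of the 3 groups without delayed 2 and nonunion 2, and DESeq2 called Pkm and Gpi in nonunion and Ldha, Tpi1, Pkm, Slc16a3 and Gapdh in normal. Egln3 had 280.5, 159 and 199 CPM in delayed, 77.6, 5.86 and 23.9 CPM in nonunion, 32.9, 60.0 and 48.0 CPM in normal and 24.9, 25.1 and 19.4 CPM in preOP libraries (log2 fold change 3.20, SE 0.70, adjusted p = 0.0067 for delayed). Gapdh kept its call in 0 of 6 fits without 1 library, Slc16a3 in 1, Pkm in 2 and Ldha in 3, while Gpi, Tpi1 and Egln3 kept theirs in all 6. In nonunion Pfkfb4 kept its call in 0 of 6, Pgam1 and Eno1 in 1 and Hk2 in 2, and in normal Pfkl, Pgk1 and Car9 in 0 and Ddit4 in 1. A call in 1 group and not in another does not show that the groups differ. Slc2a3 (log2 fold change -2.09, SE 0.73, adjusted p = 0.039) and Kdm3a (log2 fold change -1.33, SE 0.31, adjusted p = 0.0056) were called lower in normal hematomas, Kdm3a in all 6 fits without 1 library and Slc2a3 in 1 of them. Slc16a1 and Pfkfb4 fell in nonunion and normal, and Hk1 and Bnip3l fell in all 3 groups. Without delayed 2 and nonunion 2, nonunion had 24 of the 35 genes called higher and 5 lower, against 22.0% and 19.6% of all genes. Without nonunion 2 alone it was 25 in both directions, and without preOP 3 it was 8. In normal hematomas the count in both directions was 13 without preOP 2.

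**Figure D4:**
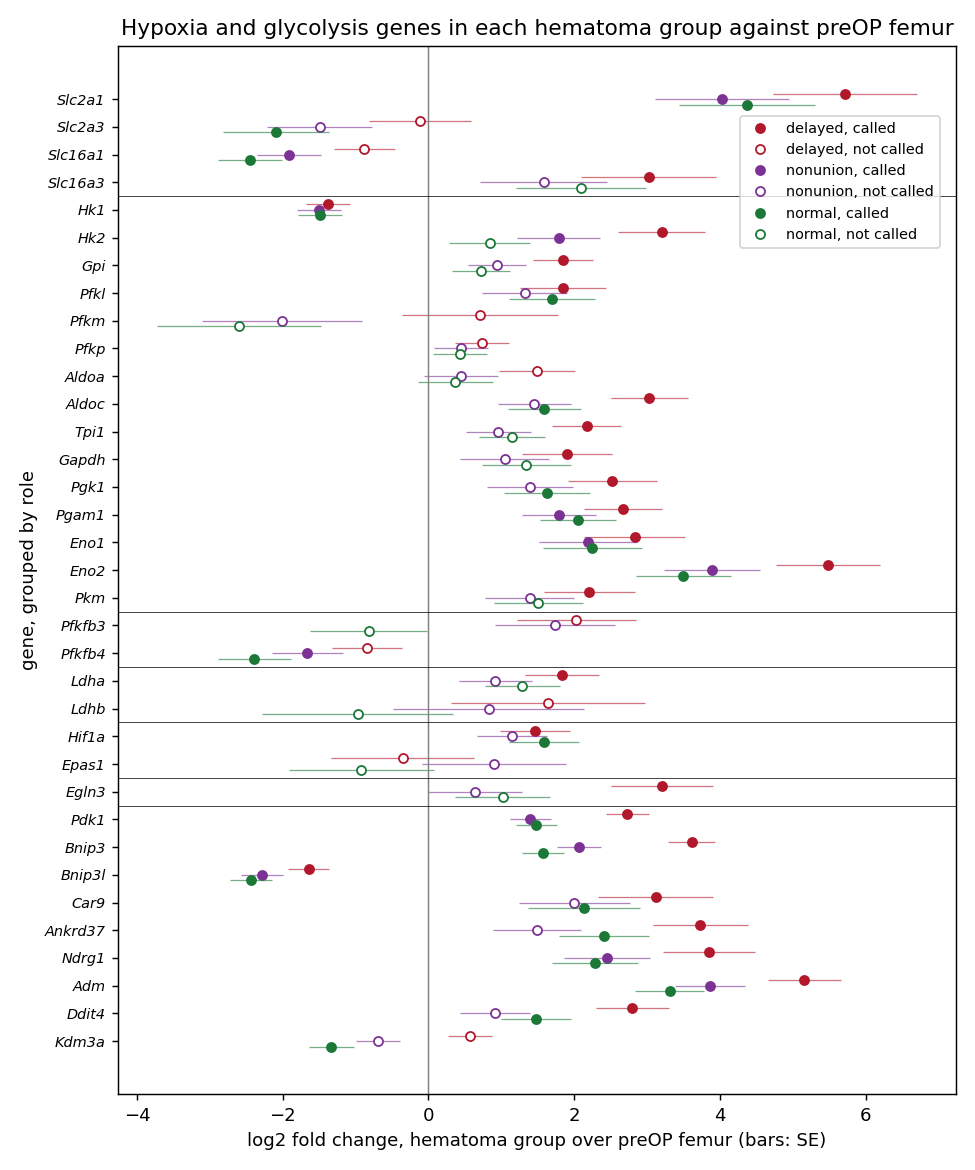
Log2 fold change over preOP femur for each of the 35 genes in delayed, nonunion and normal hematomas (filled points have an adjusted p below 0.05, bars are SE). Slc2a1, Eno2 and Adm lie farthest right, with delayed at 5.72, 5.48 and 5.16, and Hk1 and Bnip3l have filled points left of 0 in all 3 groups.

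Ratios between isoforms describe which form of a step was present, free of scaling between libraries. They were taken per kilobase and compared by a two-sided exact permutation test of the mean log2 ratio. In 3 against 3 libraries the smallest p is 0.1, so no ratio could pass 0.05, and 19 of 42 comparisons reached that smallest p, each with groups that did not overlap. Most of the 19 set a hematoma group against preOP femur. Among hematomas only Hk2 over Hk1, Eno2 over Eno1 and Pfkfb4 over Pfkfb3 reached it. Hk2 over Hk1 was 1.61, 2.99 and 1.08 in delayed, 1.10, 0.296 and 0.501 in nonunion, 0.412, 0.162 and 0.465 in normal and 0.102, 0.0863 and 0.0374 in preOP libraries. Delayed lay above normal (exact permutation p = 0.1), and every hematoma lay above every femur piece. Eno2 over Eno1 was 0.0777, 0.0655 and 0.0761 in delayed, 0.0406, 0.0566 and 0.033 in nonunion, 0.0364, 0.0262 and 0.0268 in normal and 0.0114, 0.00988 and 0.0155 in preOP libraries. Delayed lay above both other hematoma groups (exact permutation p = 0.1 each), delayed 2 included.

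Slc2a3 over Slc2a1 was 0.316, 0.585 and 0.574 in delayed, 0.358, 4.01 and 0.687 in nonunion, 0.738, 0.0355 and 0.279 in normal and 25.1, 31.2 and 21.9 in preOP libraries, so that Slc2a3 led in femur and Slc2a1 in all hematomas but nonunion 2. Slc16a3 over Slc16a1 was 4.26, 0.541 and 2.92 in delayed, 0.162 to 2.40 in nonunion, 2.18, 10.8 and 2.27 in normal and 0.123, 0.186 and 0.141 in preOP libraries. Normal 2 was the highest and nonunion 2 fell within the femur range. Ldha over Ldhb was 301, 3.47 and 207 in delayed, 95.2, 1.51 and 28.4 in nonunion, 61.1, 45.6 and 56.8 in normal and 11.5, 15.9 and 7.10 in preOP libraries. Delayed 2 and nonunion 2, with their muscle and adipocyte markers, held the 2 lowest values of all 12. Pfkfb4 over Pfkfb3 was 0.24, 0.277 and 0.252 in delayed and 0.78, 1.29 and 0.38 in normal libraries, and Aldoc over Aldoa stayed between 0.00299 and 0.0168 in all 12.

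**Figure D5:**
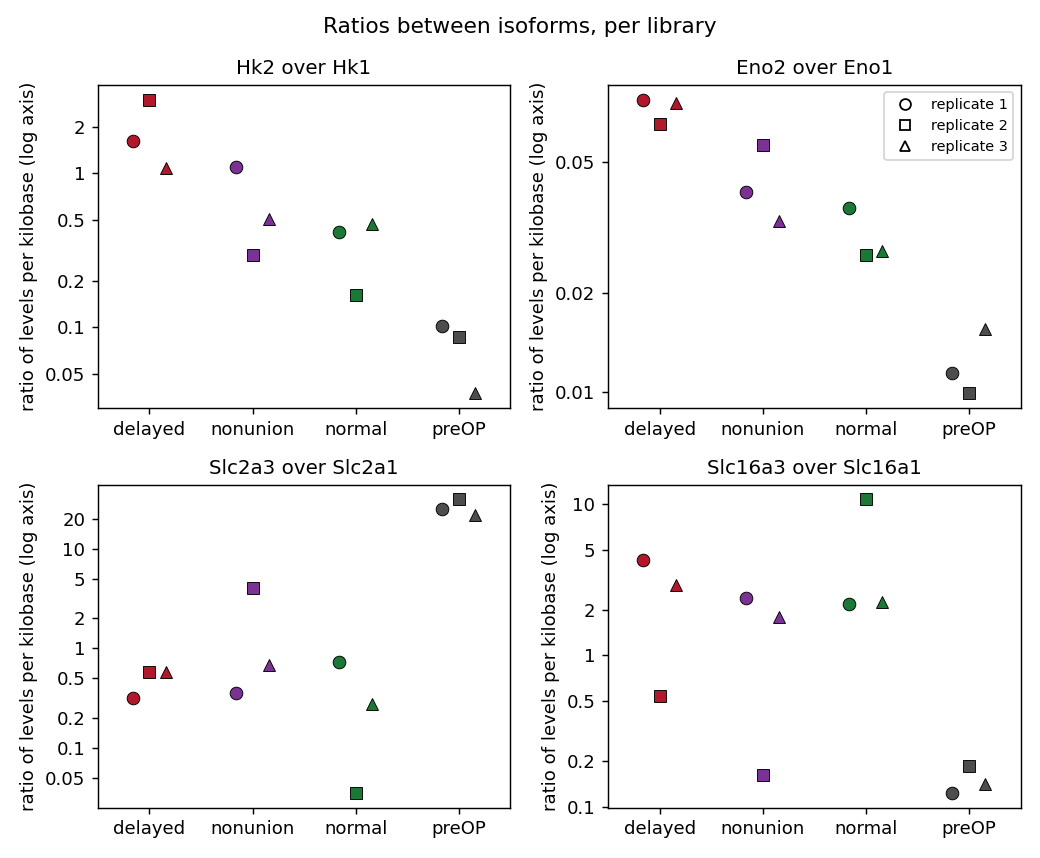
Ratios of levels per kilobase between isoforms in each library on log axes (symbols mark the replicate number). Hk2 over Hk1 and Eno2 over Eno1 are lowest in preOP, and Eno2 over Eno1 is highest in delayed at 0.0655 to 0.0777, Slc2a3 over Slc2a1 is 21.9 to 31.2 in preOP and at most 4.01 in hematomas, and Slc16a3 over Slc16a1 is 0.123 to 0.186 in preOP.

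Further genes of the pathway were read from lists chosen for their function, with earlier results of these data known. Of 30 further hypoxia genes tested, 3 were called higher in delayed than in normal hematomas (Vegfa, Gys1 and Gbe1), 0 lower and 27 did not pass, with a median log2 fold change of 0.98, where 2.68% of all genes were called higher. Without delayed 2 and nonunion 2, 11 were called higher and 1 lower, where 7.69% of all genes were called higher and 8.75% lower. Vegfa, the main angiogenic growth factor, had 613, 387 and 759 CPM in delayed and 136, 81.4 and 99.2 CPM in normal libraries (log2 fold change 2.46, SE 0.46). Gys1, muscle-type glycogen synthase, had 177, 455 and 217 CPM in delayed and 40.1, 68.7 and 44.8 CPM in normal libraries (log2 fold change 2.44, SE 0.48), highest in delayed 2. Gbe1, the glycogen branching enzyme, had 145, 249.5 and 138 CPM in delayed and 46.2, 25.3 and 41.0 CPM in normal libraries (log2 fold change 2.20, SE 0.39), also highest in delayed 2. Gbe1 lost its call without normal 1, 2 or 3, Gys1 without these or delayed 3, and Vegfa without any library but delayed 2. edgeR called 0 of the 30 in nonunion against normal and in nonunion against delayed, where 2 and 12 had an unadjusted p below 0.05.

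Against preOP femur 19 of the 30 rose and 3 fell in the mean hematoma, with a median log2 fold change of 1.56, where 17.6% of all genes were called higher and 23.0% lower. Among those that rose were Angptl4, an inhibitor of lipoprotein lipase (4.32, SE 0.51), Ak4, a mitochondrial adenylate kinase (4.05, SE 0.96), P4ha2, a collagen prolyl hydroxylase (3.70, SE 0.50) and Stc2, a stanniocalcin (3.45, SE 0.81). Those that fell were the transferrin receptor gene Tfrc (-3.96, SE 0.27), which is also one of the erythroid markers, Mxi1 (-1.36, SE 0.19) and Cxcr4 (-1.27, SE 0.38), the last of which was called in 7 of 12 fits without 1 library. Vhl, which marks HIF alpha for destruction, rose by 0.79 on the log2 scale (SE 0.16).

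Of 12 tested isoforms of glycolysis genes outside the list, edgeR called 0 in any comparison among hematomas. Unadjusted p was below 0.05 for 1 in delayed against normal, 2 in nonunion against normal and 0 in nonunion against delayed. Against preOP femur, where 17.6% of the 12846 genes passed upward and 23.0% downward, 0 isoforms rose and 4 fell in the mean hematoma. These were Pklr, the pyruvate kinase of liver and red cells (-7.16, SE 0.42), Bpgm, which makes the bisphosphoglycerate that regulates hemoglobin in red cells (-4.08, SE 0.28), Pfkfb2 (-2.51, SE 0.32) and Ldhc, the testis-type lactate dehydrogenase (-2.23, SE 0.64), which lost its call without preOP 1 or 2. Bpgm had 41.6, 62.5 and 18.8 CPM in delayed, 22.1, 21.3 and 25.9 CPM in nonunion, 59.1, 49.0 and 35.4 CPM in normal and 572, 506 and 732 CPM in preOP libraries, in the same direction as the erythroid markers. Eno3 and Pgam2, the muscle forms, had 1599 and 395 CPM in delayed 2, against 16.2 to 217 and 4.15 to 58.5 CPM in the other hematomas.

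The tricarboxylic acid cycle, which oxidises pyruvate in mitochondria, was read as a contrast. None of its 28 tested genes was called in any comparison among hematomas by edgeR, and 3, 1 and 0 had an unadjusted p below 0.05 in delayed against normal, nonunion against normal and nonunion against delayed. Against preOP femur 0 of 28 were called in the mean hematoma or in normal (5 and 4 at an unadjusted p below 0.05). Of all genes 17.6% were called higher and 23.0% lower in the mean hematoma, and 20.5% and 22.1% in normal. In delayed 12.6% of all genes were called higher, and in nonunion 14.9% were called lower. Pdp1, the phosphatase that reactivates pyruvate dehydrogenase, was called higher in delayed (1.37, SE 0.46), and Pdk3 lower in nonunion (-1.38, SE 0.44). Neither held without preOP 1, 2 or 3. Pdp1 had 22.03, 87.66 and 25.45 CPM in delayed 1 to 3. Its call was also lost without delayed 2, with limma-voom and with the replicate block. Pdk3 kept its call in 0 of 6 fits without 1 library. The median log2 fold change of these 28 genes was 0.62 in delayed against normal and 0.20 in the mean hematoma against preOP, beside 1.23 and 1.61 for the 35 genes of the hypoxia response and glycolysis, and 0.02 and -0.02 over all genes. Without delayed 2 and nonunion 2 the median turned to -0.52 in delayed against normal, with 0 genes called higher and 2 lower, where 8.75% of all genes were called lower. Against preOP the mean hematoma then had 8 of 28 higher and 2 lower, where 27.8% of all genes were called higher and 28.2% lower, so that the share called higher was near that of all genes. In the same fit the 12 further isoforms had 2 higher and 9 lower.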

How the data were processed

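RNA was extracted with Trizol and libraries made with the Illumina TruSeq kit, per the labels' protocols. The submitters' processing notes name bcl2fastq 1.8.4, FastQC, Trimmomatic, Salmon and build rn6. The deposited files hold estimated counts and TPM per transcript, by the authors per the file headers. Of 18321 transcripts, 17367 matched RefSeq symbols and were summed to 16425 genes, and 954 kept their own ID. Estimated counts were rounded and tested with edgeR 4.0.16 (R 4.3.3; filterByExpr, TMM, quasi-likelihood, Benjamini-Hochberg over all genes, threshold 0.05), in a fit of 9 hematoma libraries (12474 genes) and a fit of 12 libraries (12846 genes). The deposited effective lengths gave levels per kilobase, and the deposited TPM served as an alternative for ratios. limma 3.58.1 (voom) and DESeq2 1.42.0 were alternatives, with others on scaling, filter, length, ribosomal RNA, the libraries and the replicate number. Shares of all genes called are given for edgeR, and not for counts at an unadjusted p or for calls by DESeq2 or limma-voom. The fit was tested on simulated data with a common mean per gene, apart from planted changes, and without libraries that stand apart. The outcome is not given here, and it could not show how such libraries affect the calls. Members and lists were chosen with earlier results of these data known. Genes called in a comparison were named with their values, others by level, and up to 6 pathway genes per comparison, of which 1 is not reported here. A value of 0 allows up to 3 reads, for counting error only.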

Additional observations from a re-analysis of the deposited data

How the results depend on the processing

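In delayed against normal, 4 genes were called, against 2 with no filter on low counts, 11 with DESeq2, 2 with the replicate block and 16 without delayed 2 and nonunion 2. With the effective lengths entered in the fit the count was 3. Leaving out single libraries gave 0 to 4. In nonunion against normal the count of 0 became 1 with DESeq2. In nonunion against delayed the count of 0 became 5 with DESeq2 and 1 without delayed 2 and nonunion 2. In nonunion against preOP the count of 13 became 20 with DESeq2 and 29 without delayed 2 and nonunion 2, and 8 to 25 without single libraries. Leaving out single libraries gave 15 to 29 in the mean hematoma against preOP and 13 to 16 in normal against preOP. The cause was not tested, apart from fewer libraries in the fits that leave some out. Deviations from the group means were correlated between libraries. Over 18 same-numbered pairs r ran from -0.182 to 0.187 and exceeded 0.1 in 4. Pairs with different numbers ran from -0.355 to 0.352, so these values cannot decide whether the replicate numbers pair the samples. Under the replicate block Adm, Pdk1 and, of the further hypoxia genes, Gys1 were no longer called in delayed against normal.

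The log2 fold change of Pfkm in delayed against normal turned to -0.27 without delayed 2 and nonunion 2, and ran from -0.32 (without delayed 2) to 3.82 without single libraries. Of 294 log2 ratio differences under alternatives, 7 changed sign, each without 1 library. Ldha over Ldhb ran from -1.01 (without delayed 1) through -0.74 (without delayed 3) to 2.21 in delayed against normal, and from -0.74 (without nonunion 1) to 2.25 in nonunion against preOP. Without nonunion 2, in nonunion against delayed, Slc16a3 over Slc16a1 turned to 0.14 (lowest value -1.99) and Pfkfb4 over Pfkfb3 to 0.51 (lowest value -0.77). Aldoc over Aldoa in delayed against normal turned to -0.14 without delayed 1 and -0.12 without delayed 3, and was highest, 0.88, without delayed 2. Precision rests on 3 libraries per group, and for genes of a few CPM on few reads in nonunion 2.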
